A study of Mus musculus with 18 samples.

Results

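The collagen gene family of the mouse was followed in whole jejunum after FLASH irradiation, after conventional (CONV) irradiation and without irradiation. Members were all genes of the deposited count table whose symbol is Col, a number, a and a number, with nothing after it. This gave 44 genes of 54532 in the table, on 15 chromosomes, of which 34 passed the filter on low counts and were tested among 16257 genes. All mice were C57BL/6, an inbred laboratory strain, aged 8 to 12 weeks. FLASH mice (7 libraries) and CONV mice (5 libraries) received 15 Gy to the whole abdomen, delivered at an ultra-high dose rate in FLASH and at a standard dose rate in CONV, and control mice (6 libraries) received no radiation. Jejunum was taken 16 h after exposure and sequenced as bulk messenger RNA. No label ties a library to a separate mouse, so p-values measure only the spread between these libraries. By its title, the study asks about vessels and intestinal regeneration after FLASH.

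Collagens are secreted or membrane-bound proteins made of 3 chains wound into a triple helix. Fibrillar collagens form the cable-like fibrils of connective tissue, type IV collagens form the sheet under epithelium and around vessels and muscle cells, and type VI collagens form beaded filaments near cell surfaces. Fibril-associated collagens decorate fibrils, multiplexins lie in or beside basement membranes, and transmembrane collagens stay anchored in the cell that makes them. In the gut wall, collagen mRNA comes mainly from fibroblasts, smooth muscle, pericytes and endothelium rather than from the epithelium.

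Total estimated counts were 23.1 to 30.2 M (megacounts) per FLASH library, 19.9 to 27.0 M per CONV library and 24.3 to 27.8 M per control library, and levels are given as CPM, the counts of a gene per M counts of its library. The family took a small part of them. The lowest, median and highest shares of counts were 0.0200, 0.0362 and 0.0799% in FLASH, 0.0101, 0.0335 and 0.0591% in CONV and 0.0277, 0.115 and 0.284% in control. Single libraries stood apart within every group. FLASH 7 was the highest FLASH library for 23 of the 34 tested genes and FLASH 1 the lowest for 22. CONV 6 was the lowest CONV library for 27, and CONV 3 the highest for 20. Control 2 was the highest control library for 28 and control 6 the lowest for 31. Levels over many genes also trended with transcript length. FLASH 1, CONV 6 and control 6 had the lowest slopes of their groups (-0.34, -0.43 and -0.41 log2 units of deviation from the mean per log2 unit of length), and FLASH 7 and control 2 the highest of theirs (0.27 and 0.32). Tested collagen transcripts had a median length of 6284.5 nt, against 3366 nt for all tested protein-coding genes. As group means the slopes were 0.036 ± 0.20 in FLASH (SD, n = 7), -0.18 ± 0.21 in CONV (n = 5) and 0.11 ± 0.28 in control (n = 6). The mean slope was lower than in control in both CONV and FLASH, as were collagens, and the part of this trend in the collagen levels was not tested. An offset that models length and GC content changed the calls of Col4a2, Col4a5, Col4a6 and Col18a1 in CONV, Col20a1 in FLASH, and Col4a1, Col6a3 and Col18a1 in FLASH against CONV, with values given at each gene.

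**Figure D1:**
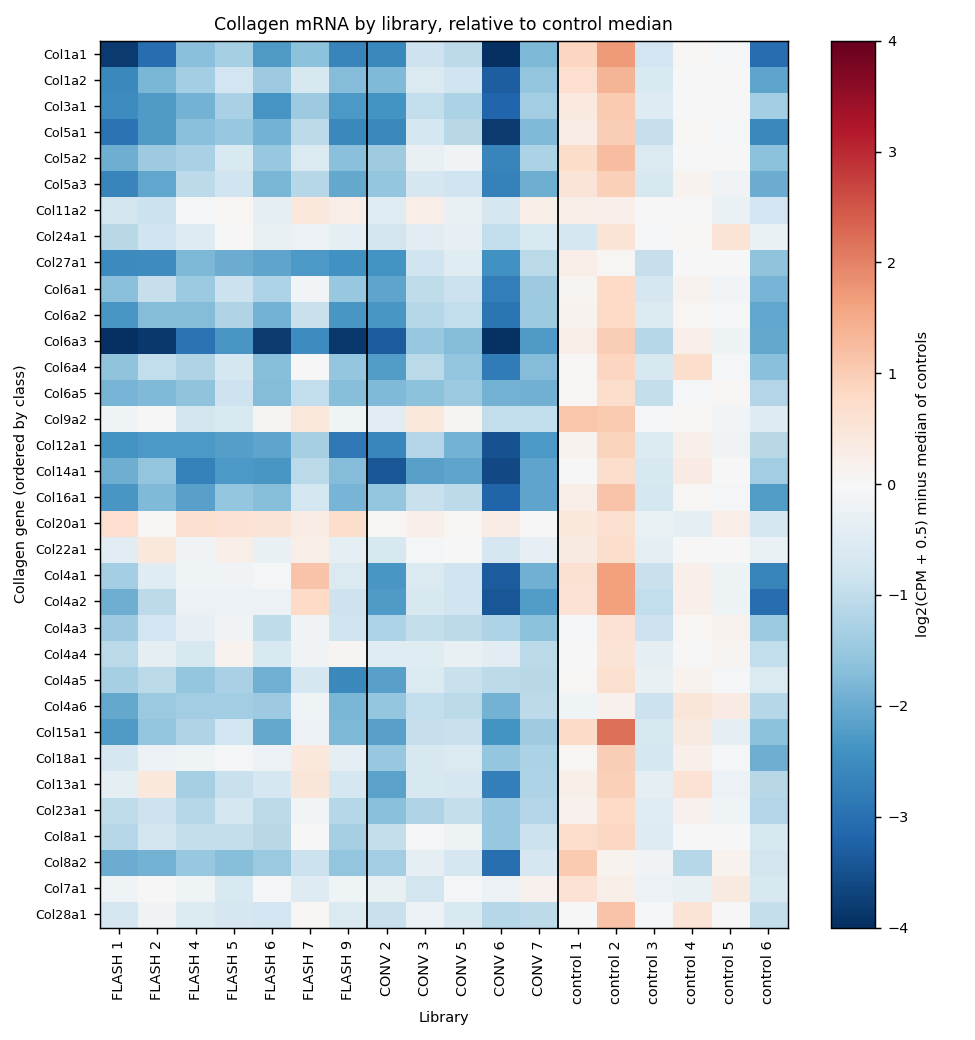
Each row is a tested collagen gene, grouped by class, and each column a library. Colour gives log2(CPM + 0.5) minus the median of the 6 control libraries, and the colour scale stops at 4 on either side. Blue prevails in FLASH and CONV, control 2 is red in most rows, and control 6 is as blue as irradiated libraries in many rows.

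Collagen mRNA was lower after irradiation at either dose rate. In FLASH against control, 21 of the 34 tested genes fell and 0 rose (edgeR quasi-likelihood test, Benjamini-Hochberg adjusted p under 0.05), where 21.0% of all tested genes fell and 16.7% rose (37.7% in all). In CONV against control, 21 fell and 0 rose, where 12.0% of all tested genes fell and 10.2% rose (22.2% in all). At an unadjusted p under 0.05, 22 fell and 0 rose in FLASH, and 28 fell and 0 rose in CONV. The shares of all tested genes at that threshold were not counted, so these numbers cannot be set against them. DESeq2 and limma-voom also called 0 higher in either comparison, and limma-trend on the authors' log2 values called 2 higher in FLASH, Col2a1 and Col20a1, and 0 in CONV. The median log2 fold change of the 34 genes was -1.45 in FLASH and -1.59 in CONV, against -0.07 and -0.04 over all tested genes in the same comparisons. Estimates were negative for 33 of 34 genes in each, the exception being the low-level gene Col20a1 both times. Both comparisons share the control libraries, and 16 genes were called in both, among them Col1a1, Col1a2, Col3a1, Col5a1 and the 5 tested type VI genes. The share of all tested genes called in both was not counted, so the 16 cannot be set against it.

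In CONV the count of 21 depended on single libraries. It was 8 without control 2, without CONV 2 or without CONV 6, 10 without CONV 7, 12 without control 4 and 13 without control 1, and 27 without control 6. Calls over all tested genes moved as well, from 3615 in the main fit to 1869 without CONV 6 and 6493 without control 6. Under every alternative in which they were tested, 7 genes were called in CONV (Col3a1, Col6a3, Col6a4, Col6a5, Col12a1, Col14a1 and Col23a1) and 10 in FLASH (Col3a1, Col4a5, Col4a6, Col6a2, Col6a3, Col6a5, Col12a1, Col14a1, Col15a1 and Col27a1). Col4a6 was tested in 30 of the 31 alternatives in FLASH. Of the 34 tested collagen genes, 4 were lower in every FLASH library than in every control library, where 6.86% of all tested genes were. Likewise 4 of the 34 were lower in every CONV library, where 4.95% of all tested genes were. Those genes were Col4a5, Col6a3, Col12a1 and Col27a1 in FLASH, and Col4a5, Col6a5, Col12a1 and Col14a1 in CONV.

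FLASH and CONV differed in few collagen genes. Col27a1 fell in FLASH against CONV, 0 genes rose with edgeR, and the median log2 fold change was 0.12. At an unadjusted p under 0.05, where the share of all tested genes was not counted, 1 fell and 4 were higher in FLASH (Col4a1, Col4a3, Col13a1 and Col18a1). DESeq2 called 3 of these higher (Col4a1, Col13a1 and Col18a1), limma-voom called 0 and limma-trend called 1, Col2a1. Among all tested genes, 9.91% fell and 9.88% rose, so the share of collagens called between the dose rates (2.94%) was below that of all genes (19.8%). On simulated counts, 35.4% of 2-fold changes were recovered in this comparison, so differences of that size may be missed.

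**Figure D2:**
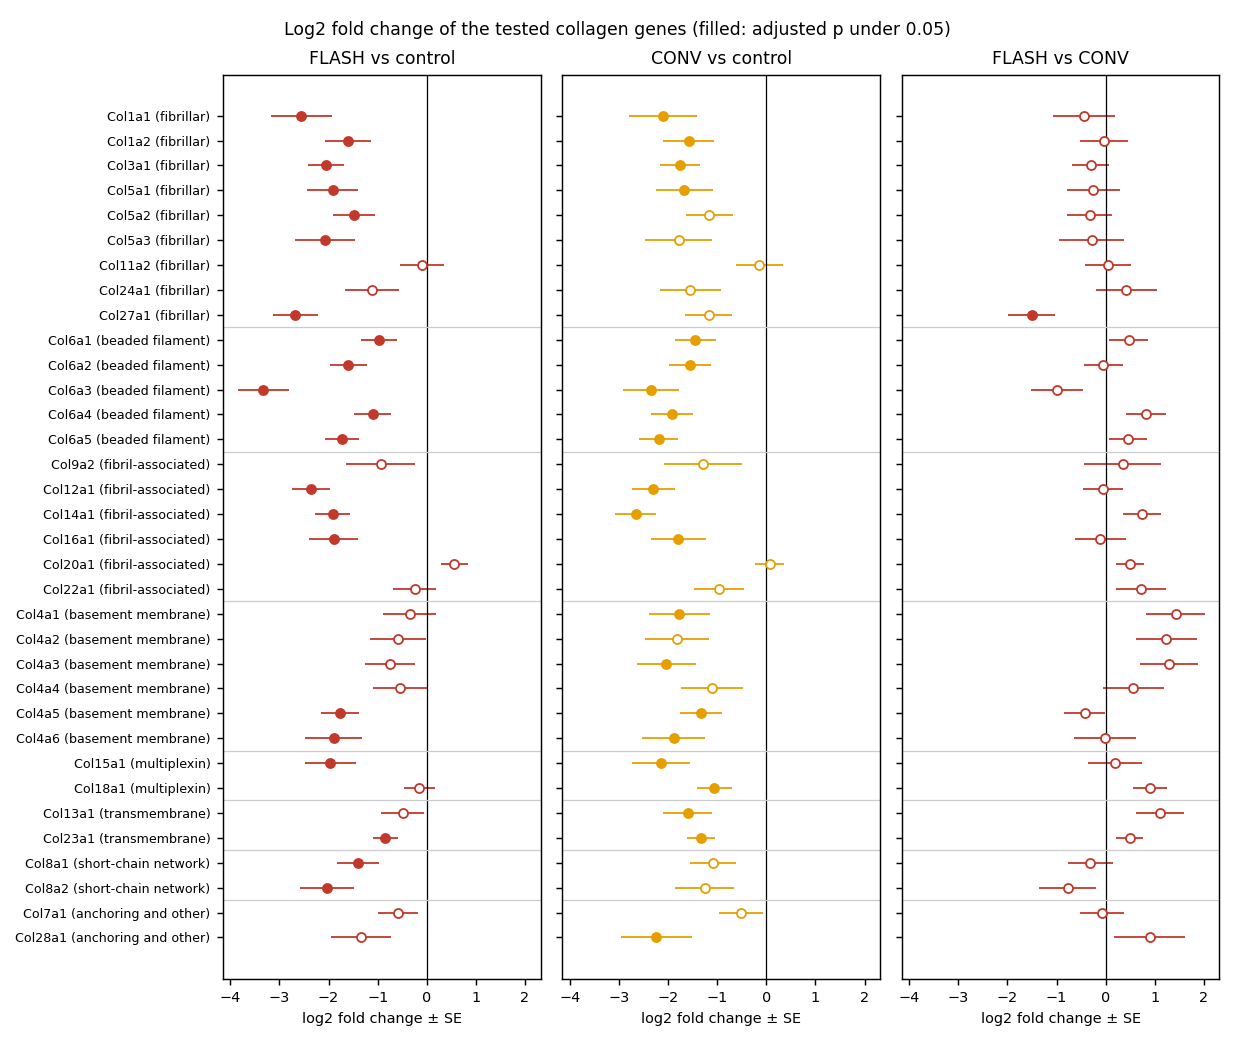
Points are log2 fold changes of the 34 tested collagen genes with their standard errors (bars) for FLASH against control, CONV against control and FLASH against CONV. Filled points passed an adjusted p of 0.05. Nearly all points lie left of 0 against control, while in FLASH against CONV 4 of 6 type IV points and both multiplexins lie right of 0 without passing.

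Markers of cell types were summed per library, and their calls stand beside the 37.7% (FLASH) and 22.2% (CONV) of all tested genes that passed. Summed smooth muscle markers (12 genes, none at 0) had a lowest, median and highest level of 702, 911 and 1692 CPM in FLASH, 324, 1415 and 1801 CPM in CONV and 1764, 2539 and 5011 CPM in control. Of these 12 genes, 11 fell in FLASH and 5 in CONV. Fibroblast markers (12 genes) summed to 238, 272 and 318 CPM in FLASH, 228, 362 and 433 CPM in CONV and 346, 384 and 516 CPM in control. In FLASH 5 of them fell and 1 rose. In CONV 1 fell (Clec3b, -1.65 ± 0.27) and 1 rose (Scara5). Endothelial markers (12 genes) summed to 178, 223 and 381 CPM in FLASH, 121, 153 and 199 CPM in CONV and 94.1, 219 and 782 CPM in control. Pericyte markers (8 genes, 7 tested) summed to 112, 161 and 233 CPM in FLASH, 63.5, 253 and 320 CPM in CONV and 211, 240 and 402 CPM in control. Of the endothelial markers, 1 fell and 1 rose in FLASH and 3 fell in CONV, and of the pericyte markers 2 fell in FLASH and 0 in CONV. Leukocyte markers (8 genes) summed to 247, 296 and 610 CPM in FLASH, 315, 394 and 672 CPM in CONV and 1125, 1656 and 3086 CPM in control, and 8 fell in FLASH and 6 in CONV. Adipocyte markers (6 genes) summed to 147, 249 and 314 CPM in FLASH, 105, 134 and 197 CPM in CONV and 48.9, 54.3 and 97.6 CPM in control. The sums were higher in both irradiated groups, with no overlap of either with control. By gene, though, estimates against control were negative for 5 of the 6 in FLASH and for 3 in CONV. Of these genes, 1 rose and 1 fell in FLASH and 1 rose in CONV. Mesothelial markers (7 genes, 5 tested) summed to 56.8, 101 and 114 CPM in FLASH, 40.4, 58.0 and 70.4 CPM in CONV and 57.3, 63.1 and 70.5 CPM in control, and 1 rose and 1 fell in FLASH and 0 passed in CONV. Epithelial markers (9 genes) summed to 11073, 12611 and 13249 CPM in FLASH, 9074, 9971 and 10183 CPM in CONV and 8530, 10783 and 13164 CPM in control. In bulk tissue, fewer cells of a type and less RNA per cell cannot be told apart, and the part of these markers in the collagen levels was not tested.

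Fibrillar collagens form the bulk of interstitial fibres. Of 11 genes, 9 were tested. In FLASH 7 fell (77.8%, against 21.0% of all tested genes), and in CONV 4 fell (44.4%, against 12.0%). Col3a1 (ENSMUSG00000026043, chr1:45311538-45349706, plus strand of mm10), the chain of type III collagen, averaged 10.2 CPM per kilobase of transcript in FLASH, 12.6 in CONV and 42.6 in control. Per kilobase it ranked first of the family in CONV and in control, while in FLASH Col4a1 (15.6 CPM per kb) and Col6a1 (11.7 CPM per kb) had higher means. Col3a1 ranged from 38.2 to 89.8 CPM in FLASH, with a median of 45.6 CPM. In CONV 2, 3, 5, 6 and 7 it stood at 41.3, 110.4, 91.9, 24.2 and 84.2 CPM. In control it ranged from 85.1 to 457 CPM, with a median of 220.3 CPM. FLASH 5, CONV 3 and CONV 5 lay above the lowest control library, control 6, and all other irradiated libraries lay below it. The log2 fold change was -2.06 ± 0.37 in FLASH (edgeR adjusted p = 0.0003), a 4.16-fold lower level, and -1.75 ± 0.41 in CONV (adjusted p = 0.00643), 3.37-fold lower. Between FLASH and CONV it was -0.30, with a 95% interval of -1.04 to 0.44.

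The 250 bases before the annotated RefSeq start of Col3a1 are shown because Col3a1 had the highest mean level per kilobase over all libraries and fell in both comparisons (build GRCm38.p6, chr1:45311288-45311537, plus strand). Capitals mark matches on either strand to the CCAAT box (CCAAT), the TATA box (TATAAA) or the GC box (GGGCGG). The window holds 1 match, to the TATA box.
Col3a1: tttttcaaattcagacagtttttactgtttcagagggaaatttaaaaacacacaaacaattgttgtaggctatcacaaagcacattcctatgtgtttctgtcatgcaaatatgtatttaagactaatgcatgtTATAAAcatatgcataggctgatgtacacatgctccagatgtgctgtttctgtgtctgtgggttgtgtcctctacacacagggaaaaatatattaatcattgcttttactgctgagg
Among such windows, 38 belonged to 35 of the 44 members. The TATA box letters were in 5 of them (13.2%) and in 12.4% of 32851 windows of all genes. Those of the CCAAT box were in 13 (34.2%) and in 33.9% of all, and those of the GC box in 22 (57.9%) and in 32.7% of all. These are matches of letters in a fixed window only.

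Type I collagen, the main fibre protein of most tissues, is built from the chains of Col1a1 and Col1a2. Col1a1 (ENSMUSG00000001506, chr11:94936224-94953042) ranged from 3.45 to 22.2 CPM in FLASH (median 11.3). It stood at 8.90, 31.1, 26.8, 2.30 and 15.9 CPM in CONV 2, 3, 5, 6 and 7, and ranged from 6.42 to 185 CPM in control (median 56.2). All FLASH and CONV libraries lay below the control median, and control 6 lay among them. Its log2 fold change was -2.55 ± 0.62 in FLASH (adjusted p = 0.00357) and -2.10 ± 0.69 in CONV (adjusted p = 0.0368). Col1a2 (ENSMUSG00000029661, chr6:4504814-4541544) ranged from 11.2 to 44.5 CPM in FLASH (median 25.0), was at 19.9, 46.5, 39.9, 6.64 and 22.6 CPM in CONV, and ranged from 15.5 to 179 CPM in control (median 69.05). It fell by 1.60 ± 0.47 on the log2 scale in FLASH (adjusted p = 0.0117) and by 1.58 ± 0.52 in CONV (adjusted p = 0.0381). The CONV calls of both genes were lost without control 1, 2, 4 or 5 and without CONV 2, 6 or 7 (adjusted p from 0.0501 to 0.107 for Col1a1 and from 0.0524 to 0.109 for Col1a2). The FLASH call of Col1a2 was lost without control 2 (log2 fold change -1.17, adjusted p = 0.0519).

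Type V chains take part in starting fibrils and setting their width. Col5a1 ranged from 2.73 to 11.6 CPM in FLASH (median 6.20), was at 3.72, 14.8, 11.1, 1.26 and 6.85 CPM in CONV 2, 3, 5, 6 and 7, and ranged from 3.69 to 48.5 CPM in control (median 24.5). Its level fell in FLASH (-1.92 ± 0.52, adjusted p = 0.00714) and in CONV (-1.67 ± 0.58, adjusted p = 0.0449). The CONV call was lost without any 1 of 11 libraries: control 1, 2, 4 and 5, CONV 2, 6 and 7 and FLASH 2, 5, 6 and 9 (adjusted p from 0.0503 to 0.114). Col5a2, which lies beside Col3a1 on chromosome 1, ranged from 4.78 to 13.1 CPM in FLASH (median 6.96), was at 7.12, 16.0, 18.1, 2.75 and 7.98 CPM in CONV, and ranged from 6.09 to 47.0 CPM in control (median 19.9). In FLASH it fell (-1.49 ± 0.43, adjusted p = 0.0112), and in CONV its log2 fold change was -1.16 ± 0.47 (adjusted p = 0.0826, and 0.0205 without control 6). Col5a3, another type V chain, averaged 0.844 ± 0.593 CPM in FLASH (SD, n = 7), 1.02 ± 0.794 CPM in CONV (n = 5) and 3.542 ± 2.29 CPM in control (n = 6). The level was lower in FLASH (-2.07 ± 0.62, adjusted p = 0.0130), while its CONV value was -1.78 ± 0.68 (adjusted p = 0.0647, and from 0.0175 to 0.0492 without control 6, CONV 3 or FLASH 1).

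Col27a1 (ENSMUSG00000045672, chr4:63214004-63334991), a fibrillar collagen known best from cartilage, was the member that differed between dose rates, and its library values are given for that reason, chosen after they were seen. It ranged from 0.361 to 0.969 CPM in FLASH, with a median of 0.533 CPM. In CONV 2, 3, 5, 6 and 7 it was at 0.471, 2.41, 3.13, 0.451 and 1.92 CPM, and in control it ranged from 1.17 to 5.63 CPM (median 4.57). CONV libraries fell into a low pair within the FLASH range and 3 libraries above it. The log2 fold change was -1.51 ± 0.47 in FLASH against CONV (adjusted p = 0.0305), -2.68 ± 0.46 in FLASH against control (adjusted p = 0.000194), with no overlap, and -1.17 ± 0.47 in CONV against control (adjusted p = 0.0791, and 0.0230 without control 6 and 0.0419 without CONV 5). The difference between dose rates was lost without CONV 3, 5 or 7 and without FLASH 2, 7 or 9, with estimates from -1.48 to -1.17 and adjusted p from 0.0545 to 0.0983. Col11a2 and Col24a1 did not pass in either comparison. Col11a2 averaged 0.628 ± 0.365 CPM in FLASH, 0.604 ± 0.325 CPM in CONV and 0.674 ± 0.277 CPM in control. Col24a1 had a log2 fold change of -1.12 ± 0.55 in FLASH (adjusted p = 0.115) and -1.54 ± 0.62 in CONV (adjusted p = 0.0791, and 0.0483 without control 6 and 0.0375 without FLASH 1).

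**Figure D3:**
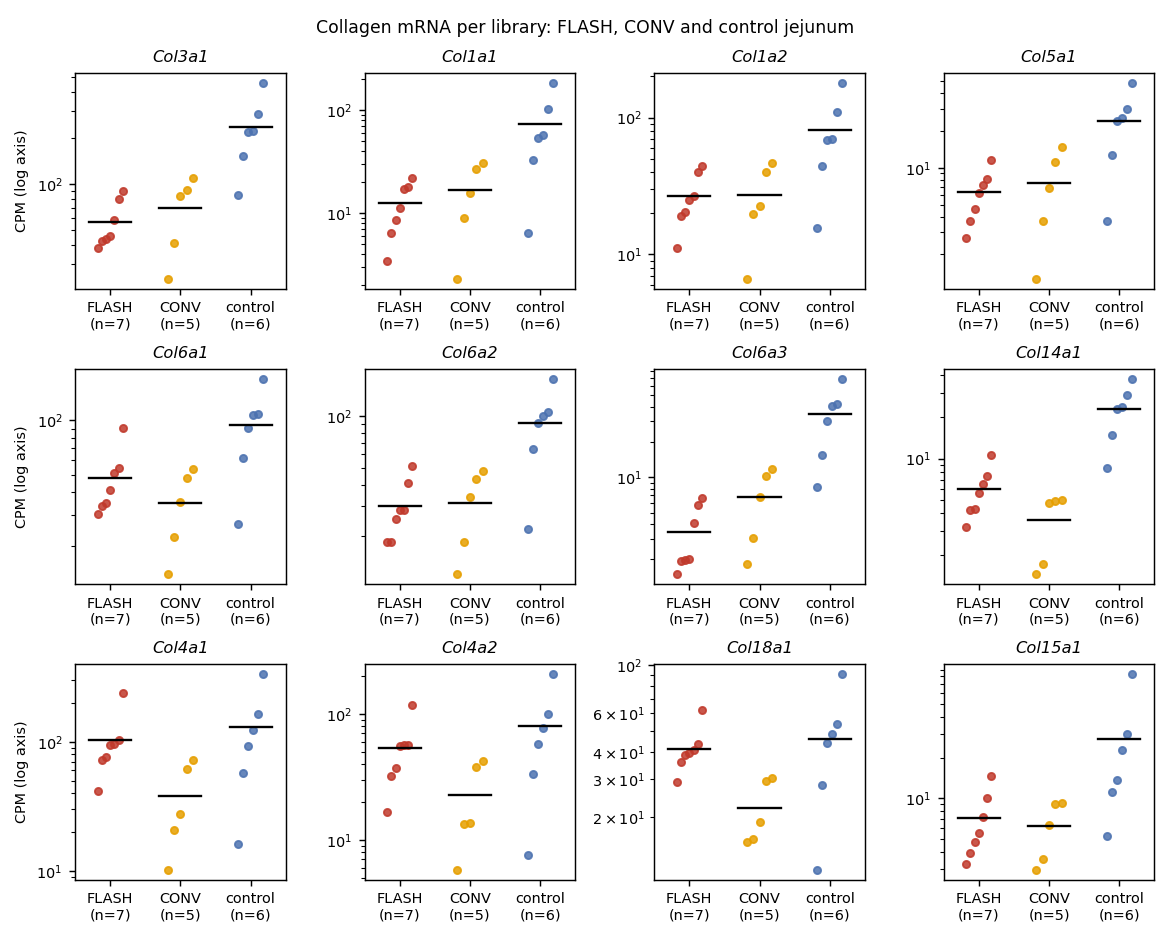
Points are single libraries for 12 collagen genes, in CPM on log axes, for FLASH (n = 7), CONV (n = 5) and control (n = 6), and bars are group means. Col3a1, Col6a3 and Col14a1 lie mostly below the controls in FLASH and CONV, while Col4a1 and Col18a1 in FLASH lie within the control range.

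Type VI collagen, the beaded filament, was lower as a whole set: all 5 tested genes of 6 fell in FLASH and in CONV, where 21.0 and 12.0% of all tested genes fell. Its basic unit joins the chains of Col6a1 and Col6a2 with a longer chain such as that of Col6a3. Col6a3 (ENSMUSG00000048126, chr1:90765923-90843971) had the lowest log2 fold change of the tested family in FLASH. It ranged from 1.48 to 6.67 CPM in FLASH (median 2.01), was at 3.04, 11.9, 10.3, 1.81 and 6.85 CPM in CONV 2, 3, 5, 6 and 7, and ranged from 8.21 to 69.4 CPM in control (median 35.5). Every FLASH library lay below every control library, and CONV 3 and CONV 5 lay above control 6 alone. The log2 fold change was -3.33 ± 0.52 in FLASH (adjusted p = 9.07e-05), 10.1-fold lower, and -2.34 ± 0.57 in CONV (adjusted p = 0.00800), 5.06-fold lower. Between FLASH and CONV it was -0.99 ± 0.52 (adjusted p = 0.187). With the offset for length and GC that difference was -1.41 and passed (adjusted p = 0.00331).

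Col6a1 (ENSMUSG00000001119, chr10:76708792-76726168) ranged from 30.3 to 90.3 CPM in FLASH (median 41.4), was at 22.6, 48.0, 53.5, 13.99 and 35.4 CPM in CONV 2, 3, 5, 6 and 7, and ranged from 26.7 to 170.9 CPM in control (median 98.7). FLASH 7 stood above the other FLASH libraries. The log2 fold change was -0.97 ± 0.37 in FLASH (adjusted p = 0.0426) and -1.44 ± 0.41 in CONV (adjusted p = 0.0193). Its FLASH call was lost without any 1 of 11 libraries (control 1, 2, 4 and 5, CONV 7 and FLASH 1, 2, 4, 5, 6 and 9), with estimates from -1.0046 to -0.68 and adjusted p from 0.0506 to 0.157. That call was also lost with limma-voom (adjusted p = 0.0807), limma-trend (0.102) and a replicate block in edgeR (0.102). In edgeR it was lost with a filter of at least 1 count (0.0869) and with the genes of the authors' table (0.0530). Its CONV call was lost without control 2, CONV 2 or CONV 6 (adjusted p from 0.0520 to 0.0586). Col6a2 (ENSMUSG00000020241, chr10:76595762-76623630), the next collagen gene on the same strand, ranged from 18.5 to 51.2 CPM in FLASH (median 28.4), was at 18.5, 43.2, 48.2, 12.0 and 34.0 CPM in CONV, and ranged from 22.0 to 166 CPM in control (median 95.3). The gene fell in FLASH (-1.60 ± 0.38, adjusted p = 0.00312) and in CONV (-1.55 ± 0.43, adjusted p = 0.0162, just past 0.05 without CONV 2 at 0.050024).

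Col6a4 and Col6a5 lie side by side on chromosome 9 and encode alternatives to the long chain. Col6a4 ranged from 8.77 to 29.4 CPM in FLASH (median 12.6), was at 5.86, 13.9, 9.57, 3.88 and 8.62 CPM in CONV 2, 3, 5, 6 and 7, and ranged from 9.01 to 54.2 CPM in control (median 29.7). Its level fell in FLASH (-1.10 ± 0.38, adjusted p = 0.0274) and in CONV (-1.92 ± 0.43, adjusted p = 0.00509). The FLASH call was lost without control 2 or 4 and without FLASH 1, 4, 6 or 9 (adjusted p from 0.0519 to 0.0962). Col6a5 averaged 0.984 ± 0.473 CPM in FLASH, 0.714 ± 0.153 CPM in CONV and 3.27 ± 1.73 CPM in control. It fell in both, by 1.73 ± 0.35 on the log2 scale in FLASH (adjusted p = 0.000828) and by 2.19 ± 0.40 in CONV (adjusted p = 0.00119), where no library overlapped with control.

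Fibril-associated collagens bind the surface of fibrils. Of 9 genes, 6 were tested, and Col12a1, Col14a1 and Col16a1 fell in both FLASH and CONV. This was 50% of the tested genes of the class in each, against 21.0% (FLASH) and 12.0% (CONV) of all tested genes. Col12a1 ranged from 1.62 to 5.57 CPM in FLASH (median 2.65), was at 1.99, 6.31, 3.61, 0.858 and 2.62 CPM in CONV 2, 3, 5, 6 and 7, and ranged from 6.64 to 27.8 CPM in control (median 14.9). Neither irradiated group overlapped with control. The log2 fold change was -2.36 ± 0.39 in FLASH (adjusted p = 0.00014) and -2.30 ± 0.44 in CONV (adjusted p = 0.00155). Col14a1 had the lowest log2 fold change of the tested family in CONV. It ranged from 3.17 to 10.7 CPM in FLASH (median 5.66), was at 1.73, 4.78, 5.03, 1.44 and 4.93 CPM in CONV, and ranged from 8.58 to 38.0 CPM in control (median 23.2). Every CONV library lay below every control library, and FLASH 7 alone of the FLASH libraries lay above a control library, control 6. Its log2 fold change was -1.92 ± 0.36 in FLASH (adjusted p = 0.000483) and -2.66 ± 0.42 in CONV (adjusted p = 0.000386). Col16a1 ranged from 1.16 to 4.58 CPM in FLASH (median 1.964), was at 2.36, 4.01, 3.537, 0.406 and 1.42 CPM in CONV, and ranged from 1.28 to 17.9 CPM in control (median 7.85). It fell by 1.90 ± 0.50 on the log2 scale in FLASH (adjusted p = 0.00608) and by 1.79 ± 0.56 in CONV (adjusted p = 0.0294). The CONV call of Col16a1 was lost without control 1 or 2 and without CONV 2, 6 or 7 (adjusted p from 0.0509 to 0.0836).

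The other 3 tested genes of that class did not pass. Col9a2 averaged 0.405 ± 0.257 CPM in FLASH, 0.314 ± 0.356 CPM in CONV and 0.788 ± 0.628 CPM in control, and Col22a1 0.445 ± 0.230, 0.262 ± 0.168 and 0.527 ± 0.304 CPM in the same groups. Col20a1 averaged 2.03 ± 0.394 CPM in FLASH, 1.44 ± 0.157 CPM in CONV and 1.37 ± 0.658 CPM in control. Its log2 fold change in FLASH was 0.56 ± 0.27 (adjusted p = 0.112), and it passed as higher without control 2 (0.80, adjusted p = 0.0256) and with the length and GC offset (0.81, adjusted p = 0.0180).

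Basement membrane collagens had a median log2 fold change of -0.67 in FLASH, -1.80 in CONV and 0.90 in FLASH against CONV, where 0 of 6 passed. Of the 6 type IV genes, 2 fell in FLASH (Col4a5 and Col4a6) and 4 in CONV (Col4a1, Col4a3, Col4a5 and Col4a6). The share called in FLASH (33.3%) was near that of all tested genes, of which 37.7% passed and 21.0% fell. In CONV the share was 66.7%, where 22.2% of all tested genes passed and 12.0% fell. Col4a1 (ENSMUSG00000031502, chr8:11198423-11312826, minus strand) and Col4a2 (ENSMUSG00000031503, chr8:11312805-11449287, plus strand) encode the chains of the common basement membrane network, which surrounds vessels, muscle cells and the epithelium. Col4a1 ranged from 41.7 to 238 CPM in FLASH, with a median of 94.8 CPM. It was at 20.7, 71.8, 61.3, 10.2 and 27.7 CPM in CONV 2, 3, 5, 6 and 7, and ranged from 16.3 to 334 CPM in control, with a median of 108 CPM. Every CONV library lay below the FLASH median, and all libraries but CONV 6 lay within the control range. The log2 fold change was -0.35 ± 0.54 in FLASH (95% interval -1.40 to 0.71, adjusted p = 0.645) and -1.77 ± 0.62 in CONV (adjusted p = 0.0461). In FLASH against CONV it was 1.43 ± 0.60 (95% interval 0.26 to 2.59, adjusted p = 0.0974).

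The call of Col4a1 in CONV passed in 13 of 31 alternatives and was lost without any 1 of 12 libraries: control 1, 2, 4 and 5, CONV 2, 6 and 7 and FLASH 2, 4, 5, 6 and 9 (estimates from -1.85 to -1.25, adjusted p from 0.0518 to 0.142). The difference between FLASH and CONV passed without control 6 (adjusted p = 0.0477), with DESeq2 (0.0298), with the 2 groups fitted alone (0.0495) and with the length and GC offset (1.13, adjusted p = 0.0380). Col4a2 ranged from 16.8 to 117 CPM in FLASH (median 56.0), was at 13.5, 42.0, 37.9, 5.78 and 13.7 CPM in CONV 2, 3, 5, 6 and 7, and ranged from 7.63 to 206 CPM in control (median 66.9). Its log2 fold change was -0.59 ± 0.57 in FLASH (adjusted p = 0.436), -1.83 ± 0.65 in CONV (adjusted p = 0.0510) and 1.23 ± 0.62 in FLASH against CONV (adjusted p = 0.172). The CONV value passed without control 3, control 6, CONV 3, CONV 5, FLASH 1 or FLASH 7 (adjusted p from 0.00917 to 0.0479), with DESeq2 (0.0114) and with the length and GC offset (-1.19, adjusted p = 0.0380). FLASH 7 held the highest value of both genes in FLASH. Summed markers of endothelium (381 CPM), fibroblasts (318 CPM), smooth muscle (1692 CPM) and pericytes (233 CPM) were also highest there. So were those of enteric neurons and glia (68.1 CPM), while epithelial, mesothelial, leukocyte and adipocyte markers peaked in other FLASH libraries. FLASH 7 was also highest in FLASH for 23 of the 34 tested collagens.

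The type IV genes lie in 3 head-to-head pairs, each transcribed outward from a shared region. The annotated starts of Col4a1 and Col4a2 overlap by 22 bases, those of Col4a4 and Col4a3 on chromosome 1 are 71 bases apart, and those of Col4a6 and Col4a5 on chromosome X are 1308 bases apart.

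The other type IV genes were rarer. Col4a5 averaged 1.18 ± 0.640 CPM in FLASH, 1.58 ± 0.717 CPM in CONV and 4.02 ± 1.36 CPM in control, with no overlap of either irradiated group with control. In FLASH it fell (-1.76 ± 0.39, adjusted p = 0.00174) and in CONV (-1.33 ± 0.43, adjusted p = 0.0333). Col4a6, found with Col4a5 in smooth muscle basement membrane, averaged 0.418 ± 0.473 CPM in FLASH, 0.421 ± 0.233 CPM in CONV and 1.59 ± 0.840 CPM in control. The level was lower in FLASH (-1.90 ± 0.58, adjusted p = 0.0147) and in CONV (-1.88 ± 0.65, adjusted p = 0.0434). Both CONV calls were lost without control 1, 2, 4 or 5 and without CONV 2, 6 or 7, and that of Col4a6 also without CONV 5, FLASH 5 or FLASH 6 (adjusted p from 0.0508 to 0.0819 for Col4a5 and from 0.0503 to 0.114 for Col4a6). The length and GC offset also ended both, at -0.84 for Col4a5 (adjusted p = 0.117) and -1.33 for Col4a6 (adjusted p = 0.0558). Without FLASH 7 the FLASH value of Col4a6 was -2.69 (adjusted p = 0.00078). Col4a3 averaged 0.689 ± 0.378 CPM in FLASH, 0.279 ± 0.134 CPM in CONV and 1.16 ± 0.735 CPM in control. It fell in CONV (-2.04 ± 0.60, adjusted p = 0.0221, but from 0.0523 to 0.0565 without control 2 or CONV 2, 6 or 7), and its FLASH value was -0.75 ± 0.50 (adjusted p = 0.251). Col4a3 overlaps a transcript on the opposite strand (C430014B12Rik, 1.26 CPM over all libraries), and whether counting used strand is not given in the sources used here. Col4a4 had log2 fold changes of -0.54 ± 0.56 in FLASH and -1.11 ± 0.63 in CONV (adjusted p = 0.468 and 0.201).

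The multiplexins Col15a1 and Col18a1 both fell in CONV, and Col15a1 alone fell in FLASH. Col18a1 (ENSMUSG00000001435, chr10:77052178-77166548, minus strand), whose C-terminal end is released as endostatin, ranged from 28.9 to 62.4 CPM in FLASH (median 39.4). It was at 15.9, 29.4, 30.5, 15.4 and 19.0 CPM in CONV 2, 3, 5, 6 and 7, and ranged from 11.49 to 90.9 CPM in control (median 46.1). FLASH 1 lay below CONV 3 and CONV 5, and all other FLASH libraries lay above every CONV library. Its log2 fold change was -0.15 ± 0.32 in FLASH (adjusted p = 0.738), -1.06 ± 0.36 in CONV (adjusted p = 0.0412) and 0.91 ± 0.35 in FLASH against CONV (adjusted p = 0.0714). The CONV call was lost without control 1, 2, 4 or 5 or without CONV 2, 6 or 7 (adjusted p from 0.0607 to 0.117). The difference between dose rates passed without control 2 (0.0331) or control 6 (0.0174). With the length and GC offset the CONV estimate was -0.45 (adjusted p = 0.0800), and that of FLASH against CONV was 0.61 (adjusted p = 0.0216). Col18a1 overlaps Slc19a1 on the opposite strand by 8825 nt, a gene at 21.9 CPM, which bears on its level if strand was not used.

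The window before the RefSeq start of Col18a1 is shown beside that of Col3a1 because Col3a1 passed in FLASH against control and Col18a1 did not, a difference that was not tested (GRCm38.p6, chr10:77166531-77166780, minus strand, capitals as above). It holds 1 match to the CCAAT box and 3 to the GC box, all as their reverse complement, and 0 to the TATA box.
Col18a1: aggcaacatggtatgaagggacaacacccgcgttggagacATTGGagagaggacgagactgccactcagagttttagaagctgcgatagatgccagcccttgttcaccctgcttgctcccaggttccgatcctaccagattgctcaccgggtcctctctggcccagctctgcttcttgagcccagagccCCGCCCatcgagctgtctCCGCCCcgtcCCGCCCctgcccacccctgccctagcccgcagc

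Col15a1 ranged from 3.25 to 14.7 CPM in FLASH (median 5.55), was at 3.51, 9.03, 9.20, 2.93 and 6.28 CPM in CONV 2, 3, 5, 6 and 7, and ranged from 5.25 to 83.3 CPM in control (median 18.1). The gene fell in FLASH (-1.964 ± 0.52, adjusted p = 0.00627) and in CONV (-2.15 ± 0.59, adjusted p = 0.0157). Without control 2, the library at 83.3 CPM, the FLASH value was -1.18 (adjusted p = 0.0414) and the CONV value -1.42 (adjusted p = 0.0527), and without CONV 6 it was -1.97 (adjusted p = 0.0506).

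Among transmembrane collagens, Col13a1 and Col23a1 were tested. Col23a1 ranged from 8.87 to 18.9 CPM in FLASH (median 9.75), was at 6.02, 8.61, 10.3, 6.82 and 8.73 CPM in CONV 2, 3, 5, 6 and 7, and ranged from 8.65 to 35.4 CPM in control (median 20.5). Its level fell in FLASH (-0.84 ± 0.26, adjusted p = 0.0156, but 0.0719 without control 2) and in CONV (-1.33 ± 0.29, adjusted p = 0.00408). Col13a1 ranged from 2.16 to 8.81 CPM in FLASH (median 3.63), was at 0.995, 3.77, 3.69, 0.497 and 2.31 CPM in CONV, and ranged from 2.59 to 12.3 CPM in control (median 6.20). It fell in CONV (-1.60 ± 0.50, adjusted p = 0.0298), a call lost without control 2 or 4 or without CONV 2, 6 or 7 (adjusted p from 0.0536 to 0.0806), and its FLASH value was -0.49 ± 0.44 (adjusted p = 0.398). Col17a1, the hemidesmosome collagen of stratified epithelium, did not pass the filter. It was at 0 to 0.392 CPM in FLASH, 0 to 0.0903 CPM in CONV and 0.0730 to 0.567 CPM in control.

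The short-chain collagens Col8a1 and Col8a2, known from vessel walls and the cornea, fell in FLASH and did not pass in CONV. Col8a1 averaged 0.733 ± 0.451 CPM in FLASH, 0.911 ± 0.543 CPM in CONV and 1.956 ± 1.03 CPM in control, with log2 fold changes of -1.41 ± 0.43 in FLASH (adjusted p = 0.0153, but 0.0535 without control 2) and -1.09 ± 0.47 in CONV (adjusted p = 0.0981, but 0.0446 without control 6). Col8a2 averaged 0.903 ± 0.402 CPM in FLASH, 1.54 ± 1.02 CPM in CONV and 3.71 ± 2.30 CPM in control, with log2 fold changes of -2.03 ± 0.55 (adjusted p = 0.00755) in FLASH and -1.26 ± 0.60 (adjusted p = 0.128) in CONV. The FLASH call of Col8a2 was lost with limma-trend on the authors' log2 values (adjusted p = 0.0962). With a replicate block in edgeR, the FLASH calls of Col8a1 (adjusted p = 0.0524) and Col8a2 (0.0551) were lost. Col7a1, the anchoring fibril under stratified epithelium, averaged 0.406 ± 0.133 CPM in FLASH, 0.429 ± 0.209 CPM in CONV and 0.612 ± 0.347 CPM in control and did not pass. Col28a1 averaged 0.316 ± 0.184 CPM in FLASH, 0.163 ± 0.183 CPM in CONV and 0.814 ± 0.636 CPM in control. It fell in CONV (-2.24 ± 0.73, adjusted p = 0.0349), a call lost without control 2 or 4 or without CONV 2, 5, 6 or 7 (adjusted p from 0.0501 to 0.0964), and without CONV 3 the value was -3.08. Its FLASH value was -1.34 ± 0.61 (adjusted p = 0.0911, and 0.0272 without control 6).

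Of the 10 members below the filter, Col10a1 had 0 counts in all 18 libraries. A count of 3, the limit that a count of 0 allows, equals 0.0893 to 0.157 CPM per library, for counting error only. Col2a1, the collagen of cartilage, had 13 counts in 6 FLASH libraries, 1 count in 1 CONV library and 0 counts in control. Col25a1, a collagen known from neurons, had 48 counts in all 7 FLASH libraries, 16 in CONV and 25 in control. Col11a1 had 10, 15 and 55 counts in FLASH, CONV and control, Col9a1 9, 17 and 25, Col9a3 19, 8 and 25, and Col26a1 3, 4 and 14. Col6a6 had 3, 1 and 1 counts and Col19a1 1, 1 and 0.

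The make-up of the family is given as a description, with no test. By level per kilobase of transcript, fibrillar genes made up 20.2, 24.5 and 32.5% of the family in FLASH (lowest, median and highest library), 30.9, 39.1 and 42.4% in CONV and 37.1, 41.7 and 44.8% in control. Type IV genes made up 20.8, 29.0 and 37.4% in FLASH, 11.47, 14.6 and 19.1% in CONV and 8.81, 15.7 and 21.4% in control. Multiplexins made up 9.55, 11.8 and 13.25% in FLASH, 7.45, 8.23 and 15.4% in CONV and 6.30, 6.55 and 8.21% in control. The beaded filament share had medians of 25.4% in FLASH, 28.8% in CONV and 28.7% in control.

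Ratios of members within a library do not depend on how libraries are scaled, but the length and GC offset was not applied to them. FLASH 1, CONV 6 and control 6, with the lowest length slopes, held the lowest Col1a1 to Col1a2 ratios of their groups (0.277, 0.313 and 0.373). They also held the highest Col3a1 to Col1a1 ratios (11.8, 11.2 and 14.1). For Col4a1 to Col1a1, CONV 6 and control 6 were the highest of their groups, and FLASH 7 was the highest in FLASH. For 5 pairs and 3 comparisons, each was tested by a two-sided exact permutation test over libraries, with p adjusted over the 15 tests. The log2 ratio of Col4a1 to Col1a1 per kilobase, basement membrane against interstitial collagen, averaged 2.94 ± 0.61 in FLASH (SD, n = 7), 1.16 ± 0.50 in CONV (n = 5) and 0.76 ± 0.25 in control (n = 6). As a plain ratio it was 3.89 to 11.95 in FLASH, 1.57 to 3.97 in CONV and 1.42 to 2.27 in control. All FLASH libraries lay above all control libraries, while FLASH 5 lay just below CONV 6. FLASH exceeded control by 2.18 (exact p = 0.00117, the smallest that 1716 splits can give; adjusted p = 0.00874) and CONV by 1.79 (exact p = 0.00505, adjusted p = 0.0189). CONV and control differed by 0.40 (exact p = 0.121, adjusted p = 0.195). The FLASH differences passed whichever library was left out, and the difference between CONV and control passed without control 6 (0.48, adjusted exact p = 0.0397).

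The chains of type VI collagen also parted in FLASH. The log2 ratio of Col6a1 to Col6a2 averaged 0.92 ± 0.23 in FLASH, 0.43 ± 0.09 in CONV and 0.33 ± 0.12 in control. FLASH exceeded control by 0.59 (exact p = 0.00117, adjusted p = 0.00874), with no overlap, and CONV by 0.49 (exact p = 0.00505, adjusted p = 0.0189), where FLASH 4 (0.548) lay just below CONV 2 (0.549). The margin to control was also narrow, with control 6 at 0.543. Both held whichever library was left out. CONV and control differed by 0.10 (adjusted exact p = 0.195, and 0.0298 without control 6). The log2 ratio of Col1a1 to Col1a2 averaged -1.35 ± 0.38 in FLASH, -1.02 ± 0.45 in CONV and -0.54 ± 0.46 in control. FLASH lay below control by a difference of -0.81 (exact p = 0.00932, adjusted p = 0.0280), a call lost without any of control 1 to 5 or FLASH 1, 2 or 7 (adjusted exact p from 0.0519 to 0.0606). CONV lay below control by a difference of -0.48 (adjusted exact p = 0.195, and 0.0170 without control 6). The ratios of Col4a1 to Col4a2 and of Col3a1 to Col1a1 did not pass in any comparison, except Col4a1 to Col4a2 in FLASH against control without control 6 (0.28, adjusted exact p = 0.0170).

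**Figure D4:**
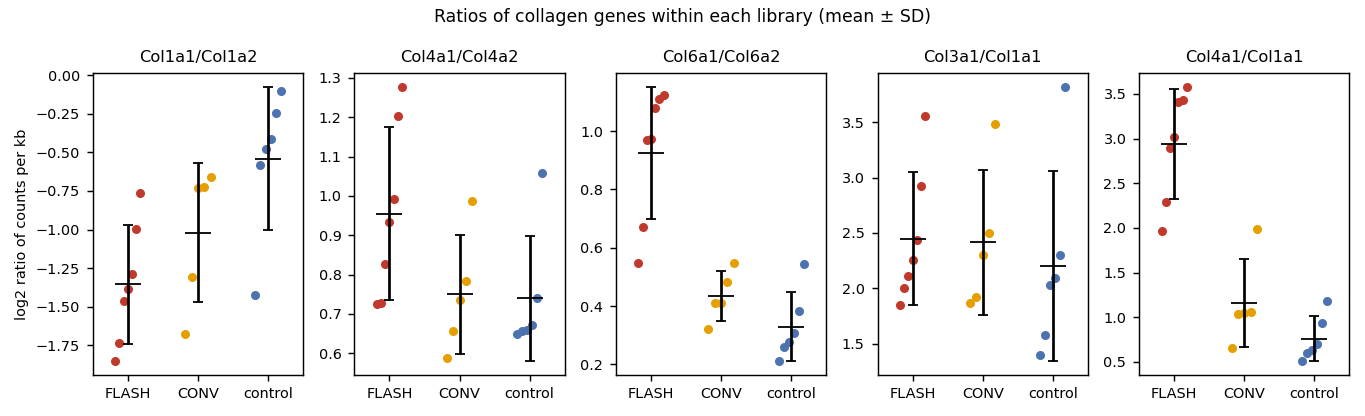
Points are log2 ratios of counts per kilobase of 2 collagen genes within each library, with the mean and SD of FLASH (n = 7), CONV (n = 5) and control (n = 6). In the panels Col6a1/Col6a2 and Col4a1/Col1a1 all FLASH points lie above all control points.

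Counts for other genes of the collagen pathway stand beside the same shares of all tested genes: 21.0% fell and 16.7% rose in FLASH, 12.0% fell and 10.2% rose in CONV, and 9.91% fell and 9.88% rose in FLASH against CONV. In CONV, 22.2% of all tested genes were called. Near it were the shares of folding genes (21.1%), propeptide removal and cross-linking genes (23.1%), and collagenases and their inhibitors (20%). That of TGF-beta pathway genes in FLASH (27.8%) was below the 37.7% of all tested genes. In FLASH against CONV the called share of every pathway list lay below the 19.8% of all tested genes. These shares ran from 0% (collagen receptors) to 18.75% (other basement membrane genes). Of 19 tested genes of folding and modification, 7 fell and 3 rose in FLASH, and 1 fell and 3 rose in CONV. Serpinh1, the collagen-specific chaperone HSP47, averaged 13.6 ± 2.67 CPM in FLASH, 50.5 ± 25.6 CPM in CONV and 50.7 ± 26.4 CPM in control. It fell in FLASH against control (-1.90 ± 0.32, edgeR adjusted p = 0.000163) and against CONV (-1.90 ± 0.33, adjusted p = 0.00109). Colgalt1, which attaches galactose to collagen, averaged 19.0 ± 4.14 CPM in FLASH, 41.4 ± 6.55 CPM in CONV and 47.2 ± 3.80 CPM in control, and fell against both (-1.31 ± 0.14 against control and -1.12 ± 0.15 against CONV). P4hb, the beta subunit of prolyl 4-hydroxylase and a general protein disulfide isomerase, rose in FLASH (1.36 ± 0.19) and in CONV (1.20 ± 0.21).

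Of 13 tested genes of propeptide removal and cross-linking, 6 fell and 2 rose in FLASH, 3 fell and 0 rose in CONV, and 2 rose in FLASH against CONV. Lox, which oxidises lysines for cross-links, averaged 11.6 ± 5.83 CPM in FLASH, 2.65 ± 1.26 CPM in CONV and 2.63 ± 1.20 CPM in control. It rose in FLASH against control (2.14 ± 0.39, adjusted p = 0.000346) and against CONV (2.14 ± 0.42, adjusted p = 0.00239). Pcolce, an enhancer of propeptide removal, averaged 2.61 ± 0.498 CPM in FLASH, 4.08 ± 1.998 CPM in CONV and 10.7 ± 3.58 CPM in control and fell in both. Bmp1, the protease that trims the C-terminal propeptide, rose in FLASH (0.84 ± 0.23, adjusted p = 0.00711).

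Of 15 tested collagenases, gelatinases and inhibitors, 6 fell and 3 rose in FLASH and 1 fell and 2 rose in CONV. Mmp13, a collagenase, averaged 2.26 ± 0.789 CPM in FLASH, 4.51 ± 1.64 CPM in CONV and 9.43 ± 1.45 CPM in control. In FLASH it fell (-2.06 ± 0.25), in CONV (-1.06 ± 0.27) and in FLASH against CONV (-0.998 ± 0.26, adjusted p = 0.0123). Mmp3 and the inhibitor Timp1 rose in both, at 2.55 ± 1.36 and 1.52 ± 0.711 CPM in FLASH, 1.91 ± 0.926 and 1.10 ± 0.382 CPM in CONV and 0.544 ± 0.213 and 0.434 ± 0.0903 CPM in control. Of 11 tested collagen receptors, 5 fell in FLASH and 4 in CONV, and 0 rose. Itga11, the integrin subunit of fibroblasts that binds type I collagen, fell in FLASH (-2.23 ± 0.52) and in CONV (-2.81 ± 0.60), as did Itga2 and Itga1, subunits of other collagen-binding integrins.

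Of 16 other basement membrane genes tested, 6 fell and 2 rose in FLASH, 9 fell and 1 rose in CONV, and 3 rose in FLASH against CONV. Lamb3 encodes a chain of a laminin that epithelium makes. It averaged 153 ± 50.4 CPM in FLASH, 46.3 ± 13.1 CPM in CONV and 12.7 ± 5.31 CPM in control. Lamb3 rose in FLASH (3.58 ± 0.32), in CONV (1.86 ± 0.31) and in FLASH against CONV (1.72 ± 0.31). Hspg2, the perlecan core protein, fell in FLASH (-1.82 ± 0.48) and in CONV (-1.92 ± 0.55). Of 20 fibril-binding and interstitial matrix genes, 14 fell and 1 rose in FLASH and 9 fell and 0 rose in CONV. Fbln5 and Tnxb fell in both.

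TGF-beta is a main inducer of collagen transcription. Of 18 genes of its pathway, 4 fell and 1 rose in FLASH, 6 fell and 0 rose in CONV, and 3 rose in FLASH against CONV. Tgfb1 averaged 13.7 ± 2.18 CPM in FLASH, 13.2 ± 3.004 CPM in CONV and 25.0 ± 10.46 CPM in control, and fell in FLASH (-0.87 ± 0.21) and in CONV (-0.92 ± 0.24). Ccn2 averaged 11.1 ± 3.64 CPM in FLASH, 3.08 ± 0.891 CPM in CONV and 6.33 ± 2.20 CPM in control. It rose in FLASH (0.81 ± 0.26, adjusted p = 0.0220), fell in CONV (-1.04 ± 0.29, adjusted p = 0.0184), and rose in FLASH against CONV (1.85 ± 0.29, adjusted p = 0.00069). Tgfbi averaged 343 ± 41.9 CPM in FLASH, 188 ± 7.65 CPM in CONV and 346 ± 78.6 CPM in control, and fell in CONV (-0.88 ± 0.15). Its value in FLASH against control was -0.01 ± 0.14, and it rose in FLASH against CONV (0.87 ± 0.15).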

How the data were processed

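Whole jejunum was profiled by bulk RNA sequencing in 18 libraries. Per the labels' protocols, libraries were made from 250 ng of RNA with a stranded ligation kit and read as single-end reads of 100 bp. Per the submitters' processing notes, STAR, Salmon, edgeR 3.40.2 and limma 3.54.2 were used with mm10. The deposited table held expected counts (estimated counts, not scaled), which were rounded. The authors also deposited normalized log2 values, used here only as an alternative.

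The rounded counts of all 18 libraries went into a single model, fitted with the quasi-likelihood method of edgeR 4.0.16 (R 4.3.3). Genes were kept by filterByExpr and scaled by TMM, dispersions were estimated robustly, and p-values were adjusted by Benjamini-Hochberg across the 16257 genes kept (threshold 0.05). CPM use TMM-scaled library sizes. The value after ± is an SE for a log2 fold change, derived from the F statistic, and an SD for a level. Levels per kilobase use the longest coding transcript of GENCODE M21. Ratios of pairs were tested by exact permutation in scipy 1.17.1. Alternatives were other size factors, filters, tools (DESeq2 1.42.0, limma 3.58.1), thresholds and sample sets, a replicate block, a spline offset for length and GC content (4 degrees of freedom) and leaving out each library. The pipeline was tested on simulated data. Of 2-fold changes, 38.5% were recovered in CONV against control, 49.5% in FLASH against control and 35.4% in FLASH against CONV. Of 4-fold changes, 82%, 84.85% and 86.7% were recovered in the same comparisons. Duplicate libraries were looked for and not found (smallest chi-square ratio 25.28 per degree of freedom).

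Library values are given for members past the threshold in any comparison whose level averaged 5 CPM or more in some group, and for 10 fixed genes. Other members are given as means. From each list of other genes, up to 4 per comparison were named by smallest p. The members, gene lists and tests were chosen with earlier results of these data known. Genes with an ID and no symbol held 0.028% of counts. A gene of the lists is not reported here.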

Additional observations from a re-analysis of the deposited data

Results flagged for a closer look

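In FLASH, 1 library lay far from the other 6 for 6 genes, and it was FLASH 7 each time. Col4a1 was at 238 CPM there, with the nearest FLASH library at 103 CPM, Col4a2 at 117 CPM (nearest 56.8), Col6a1 at 90.3 CPM (nearest 54.1), Col12a1 at 5.57 CPM (nearest 3.04), Col16a1 at 4.58 CPM (nearest 2.35) and Col23a1 at 18.9 CPM (nearest 12.3). In control, Col15a1 was at 83.3 CPM in control 2, with the nearest control library at 29.9 CPM. Control 6 lay apart in 3 log2 ratios: -1.42 for Col1a1 to Col1a2 (nearest -0.58), 1.06 for Col4a1 to Col4a2 (nearest 0.74) and 3.82 for Col3a1 to Col1a1 (nearest 2.30). In all, 10 of 72 groups of values held such a library. These groups come from the same 18 libraries and are not independent, so the count was not set against chance.

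FLASH and CONV differed in 3 results by a test of the difference itself. Col27a1 had a log2 fold change of -1.51 in FLASH against CONV. The log2 ratio of Col6a1 to Col6a2 was higher in FLASH than in CONV by 0.49, and that of Col4a1 to Col1a1 by 1.79.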

How the results depend on the processing

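No estimate that passed changed direction. In FLASH against control the count of 21 fell to 12 with a replicate block and ranged from 17 to 22 with a library left out. The block ended the FLASH calls of Col1a1, Col1a2, Col5a1, Col5a2, Col5a3, Col6a1, Col8a1, Col8a2 and Col16a1. In CONV against control the 21 became 13 with limma-voom, 13 with limma-trend on the authors' log2 values and 11 with the replicate block (10 shared), and 8 to 27 with a library left out. In FLASH against CONV the 1 became 4 with DESeq2 (1 lower, 3 higher), 0 with limma-voom, 3 with the groups compared alone, 4 with the length and GC offset, 2 with that offset and the block, 0 with the block alone, 3 without control 6, CONV 6 and FLASH 1 together, and 0 to 3 with a library left out. With a library left out, calls over all tested genes ranged from 5074 to 7164 in FLASH and from 1869 to 6493 in CONV against control. In FLASH against CONV they ranged from 2171 to 3993. Replicate numbers did not pair libraries: 3 of 13 same-number pairs had deviations correlated over 0.1 (range -0.27 to 0.61), and 4 of 17 libraries correlated best with their own number. Without control 6, CONV 6 and FLASH 1, the Col1a1 to Col1a2 ratio passed in CONV against control (-0.49) and Col4a1 to Col4a2 in FLASH against control (0.23). With a library left out, Col1a1 to Col1a2 ranged from -0.99 to -0.73 in FLASH and from -0.66 to -0.32 in CONV against control. Col4a1 to Col4a2 ranged from 0.16 to 0.28 in FLASH, Col6a1 to Col6a2 from 0.076 to 0.15 in CONV and Col4a1 to Col1a1 from 0.19 to 0.52 in CONV, all against control. Under looser filters or limma-trend, Col2a1 was called higher in FLASH against control on 13 counts. The causes were not tested. Genes under about 1 CPM rest on few counts, so a difference there may not be detectable at this depth.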
